A study of Mus musculus with 2 samples.

Results

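Mir143 and Mir145a are neighbouring microRNA genes of smooth muscle, and Mir145b is a separate gene named for its likeness to Mir145a. These 3 genes were picked by name out of the 2202 annotated microRNA genes in the count tables. The choice was made with earlier results of these data known, although the rule itself uses no measured value. The tissue was adrenal gland from female mice aged 10 days of strain B6CASTF1/J, the F1 generation between C57BL/6J and CAST/EiJ. The labels name no treatment and form 1 group of 2 libraries, given as biological replicates 1 and 2 from the animals numbered 3 and 4, although the donor entry is the same for both. The labels separate no part of the gland, so cortex, medulla, capsule and vessels were read together. No condition was compared, and what follows gives the levels of the 3 genes with their differences between the libraries.

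A microRNA is cut from a hairpin in a longer primary transcript and then guides Argonaute proteins to messenger RNAs that pair with its seed, which lowers their output. In mice, Mir143 and Mir145a are made from a shared primary transcript that serum response factor and its partner myocardin switch on in smooth muscle and pericytes, the contractile cells that wrap blood vessels. miR-145 is known to repress Klf4 and Klf5 and miR-143 to repress Elk1, which are transcription factors that oppose the contractile state, and mice without the genes have thin, poorly contracting arterial walls. In the adrenal gland such cells lie around the arterioles of the capsule and along the vessels that cross the cortex to the medulla.

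On the mm10 build with the GENCODE M21 annotation, the minus strand of chromosome 18 carries Mir143 (ENSMUSG00000065445.3) at positions 61649196 to 61649258 and Mir145a (ENSMUSG00000065592.2) at 61647825 to 61647894. The hairpins are 63 and 70 bases long with 1301 bases between them. Neither overlaps another annotated gene. Carmn, a long noncoding RNA of smooth muscle and heart regarded as the host transcript of the pair, lies on the same strand at 61649625 to 61665537, and its annotated end stops 366 bases short of Mir143. Bvht, a long noncoding RNA known from heart development in mice, is on the plus strand at 61639542 to 61647472 and ends 352 bases from Mir145a. The nearest protein-coding gene is Il17b, a cytokine gene, 35628 bases from Mir143 and 36992 bases from Mir145a. Mir145b (ENSMUSG00000098366.1) is no part of this cluster. It is annotated on the same strand at positions 69022199 to 69022273, 7.37 Mb from Mir143, in sequence with no overlapping gene.

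The hairpins of Mir145a and Mir145b have a run of 17 bases in common, whereas Mir143 shares at most 5 bases in a row with Mir145a and 6 with Mir145b. Reads that align to several places were left out of the deposited counts, so shared sequence bears on what could be counted. Of the 46 stretches of 18 bases in the Mir143 hairpin and the 53 in the Mir145a hairpin, 0 occurred in any of 141764 other annotated transcripts, read on either strand, or in the hairpins of the other members. For Mir145b, 2 of 58 such stretches occurred elsewhere. At 17 bases, 3 of 54 stretches of Mir145a and 4 of 59 of Mir145b had a match in other transcripts, and 1 stretch was common to Mir145a and Mir145b. Sequence outside annotated transcripts was not searched.

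The libraries held 2023410 assigned reads in replicate 1 and 3208821 in replicate 2, which is 38.3% and 37.5% of all reads. A single count was worth 0.494 and 0.312 CPM, where CPM is counts per 1000000 reads assigned to microRNA genes. Reads with several alignments came to 65.2 and 72.6 per 100 assigned reads. The gene counts of the libraries differed far beyond sampling noise (chi-square 510347, 412 degrees of freedom), so neither set of counts is a copy of the other. At this depth 2 preparations of the same RNA could differ too, so the statistic cannot show that the animals were separate.

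By counted reads, Mir143 was among the most abundant microRNA genes of the gland. It had 55709 counts in replicate 1 and 108247 in replicate 2, which is 27532 CPM (exact Clopper-Pearson 95% interval 27307 to 27759) and 33734 CPM (33537 to 33932). It ranked 8 of the 667 genes with a count in replicate 1 and 6 of 714 in replicate 2. Its mean was 30633 CPM ± 4385 (SD, n = 2), and replicate 2 was 1.23-fold higher. These intervals cover counting error only, since reads without molecular identifiers are not independent molecules, and in bulk tissue fewer cells of a type and less RNA per cell cannot be told apart. Reads with several alignments were left out, so ranks and CPM can understate microRNAs with numbered gene copies. The ranks given here and below therefore hold among counted reads only.

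In the order of mean levels Mir143 took rank 6, and its nearest neighbours except Mirlet7g were close to it in level. The genes just above were Mirlet7g, at 54169 and 48930 CPM, and Mirlet7i, at 32678 and 36762 CPM, both of the let-7 family that accumulates as tissues differentiate. Those just below were Mir375 of neuroendocrine cells, at 24805 and 31924 CPM, and Mir139, at 25441 and 29196 CPM. The ranges of Mirlet7i, Mir375 and Mir139 over the libraries overlapped that of Mir143, whereas the range of Mirlet7g lay wholly above it. Read within each library, Mirlet7g and Mirlet7i were above Mir143 and Mir375 and Mir139 below it in both, by more than the counting error of these genes.

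Mir145a was lower than Mir143 in both libraries and differed far more between them. It had 1814 counts in replicate 1 and 17903 in replicate 2, which is 897 CPM (exact interval 856 to 939) and 5579 CPM (5498 to 5661). Its rank moved from 97 in replicate 1 to 39 in replicate 2. The mean was 3238 CPM ± 3311 (SD, n = 2), an SD as large as the mean, so 1 level cannot be given for the tissue. The counting error of the lower value was 2.35% (1 divided by the square root of the count), small beside the 6.22-fold difference.

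By mean level Mir145a ranked 48, next to Mir455 (3544 and 3815 CPM) and Mir140 (527 and 6072 CPM) above it and Mir423 (4126 and 2215 CPM) and Mir107 (1959 and 3883 CPM) below. Mir140, which is known from cartilage and other mesenchyme, was low in replicate 1 and high in replicate 2 as Mir145a was. All 4 of these ranges overlapped the range of Mir145a, and each of the 4 changed its order with Mir145a between the libraries.

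Mir145b was at the limit of detection. It had 0 counts in replicate 1, which allows up to 1.48 CPM by the 3-count limit and 1.82 CPM by the exact interval. In replicate 2 it had 5 counts, which is 1.56 CPM (exact interval 0.506 to 3.64). A difference between the libraries was not detectable at this depth, and no fold is given. Mir145b did not reach the floor of 10 CPM in either library, so 2 of the 3 genes were measured. On the strand opposite to each gene, all 3 had 0 counts in both libraries.

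**Figure D1:**
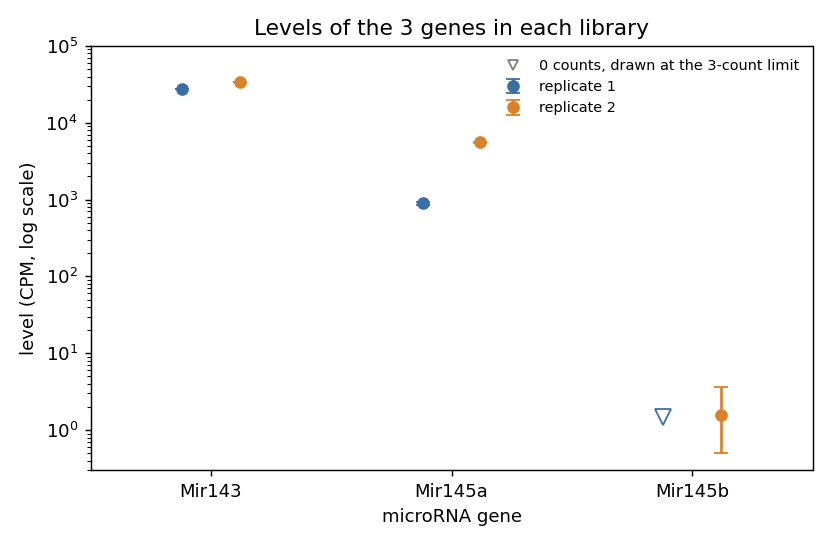
Level of each gene in CPM on a log scale, with 1 point per library and bars for the exact 95% counting interval (most are smaller than the points). Mir143 sits at 27532 and 33734 CPM, Mir145a at 897 and 5579 CPM, and Mir145b at 1.56 CPM in replicate 2. The 0 count of replicate 1 is drawn at its 3-count limit of 1.48 CPM.

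Because Mir143 and Mir145a were read in the same libraries, their proportion is free of any scaling between libraries. For each count of Mir145a there were 30.7 of Mir143 in replicate 1 (exact interval 29.3 to 32.2), against 6.05 in replicate 2 (5.95 to 6.14). Of the reads of the pair, Mir145a thus made up 3.15% in replicate 1 (3.01 to 3.30%) and 14.2% in replicate 2 (14.0 to 14.4%). The mean of this proportion was 8.67% ± 7.81 (SD, n = 2). The proportion of Mir145a to Mir143 was 5.08-fold higher in replicate 2, a log2 difference of 2.34 (exact conditional interval of the odds ratio 2.27 to 2.42). Together, the pair accounted for 2.84% and 3.93% of the reads assigned in replicates 1 and 2, with a mean of 3.39% ± 0.770 (SD, n = 2). Since Mir143 supplied most of those reads, the summed share hides the difference in Mir145a. The tables count whole hairpins and do not tell the arms apart.

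Set against all genes, Mir143 differed little between the libraries and Mir145a differed widely. Log2 ratios set replicate 2 over replicate 1, after TMM scaling (edgeR) and with 1 CPM added to each value, and compare libraries rather than conditions. Mir143 had a log2 ratio of 0.34 (exact conditional interval 0.33 to 0.36) and Mir145a 2.68 (2.62 to 2.76). Across the 329 genes that reached 10 CPM in 1 library or more, the median log2 ratio was -0.0052 and the SD 1.01. A log2 ratio of at least 1 in either direction was found in 73 genes (22.2%), with 36 (10.9%) higher and 37 (11.2%) lower by that much in replicate 2. Of the 2 members measured, 1, Mir145a, was past that size.

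The size of the ratio of Mir143 was no larger than that of most genes: 36.2% had one as small or smaller, and the median size was 0.49. For Mir145a the share was 97.3%. Mir145a had the seventh highest log2 ratio of the 329, and among the 93 genes whose mean reached 1000 CPM, 3 had a ratio as high, Mir145a included. The exact intervals express counting error alone. With 1 library per animal number, a difference between animals, if they were separate, and one between library preparations cannot be told apart.

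**Figure D2:**
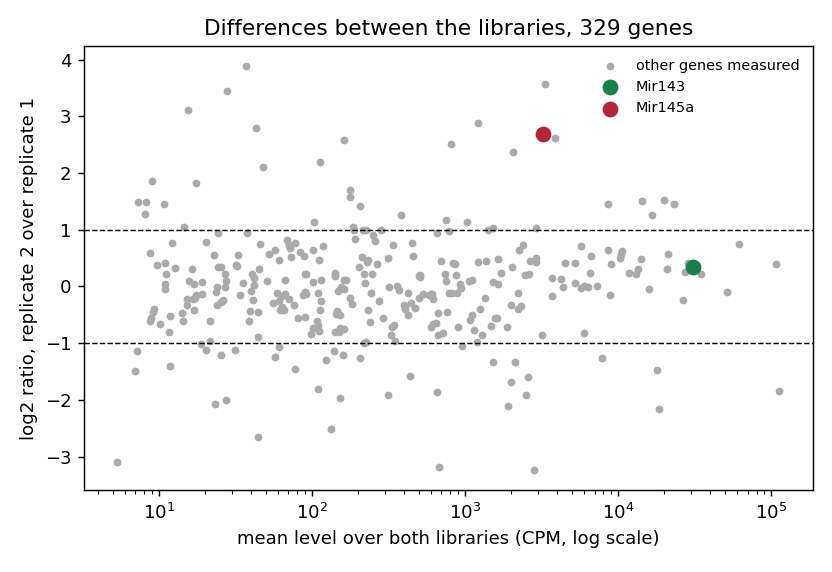
Log2 ratio of replicate 2 over replicate 1 against mean CPM on a log scale for the 329 genes measured, with dashed lines at 1 log2 unit in either direction. Mir143 lies at 0.34 among the bulk of abundant genes, and Mir145a at 2.68 above the upper line.

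Genes of a shared transcript need not have equal mature levels, so the pair was set beside other neighbours. There were 84 pairs of microRNA genes that are adjacent on 1 strand less than 10 kb apart and at 10 CPM or more in both libraries. The gap between log2 ratios was 2.34 for Mir143 and Mir145a, against a median of 0.65, and ranked 6 of 84. A gap of at least 1 was found in 27 pairs and of at least 2 in 7. The 5 wider pairs were Mir381 with Mir487b (4.73), Mir487b with Mir539 (3.41) and Mir299a with Mir380 (2.58), all on chromosome 12, Mir497 with Mir195a on chromosome 11 (2.52), and Mir34c with Mir34b on chromosome 9 (2.51). Pairs that share a gene are not independent, and no test was made.

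By rank among the 84 pairs, the pair stood lower for its difference in level than for its gap. The mean CPM of Mir143 was 9.46-fold that of Mir145a, which ranked 28 of the 84 pairs by the fold between the higher and the lower gene, with a median fold of 4.37. Mir143 was the higher gene in both libraries, and 77 of the 84 pairs likewise had the same order in both. Some pairs with a wider fold hold a numbered copy whose shared reads were left uncounted. An example is Mir27b with Mir24-1 (48.7-fold). The rank and the median fold thus do not show how usual the fold of Mir143 over Mir145a is.

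**Figure D3:**
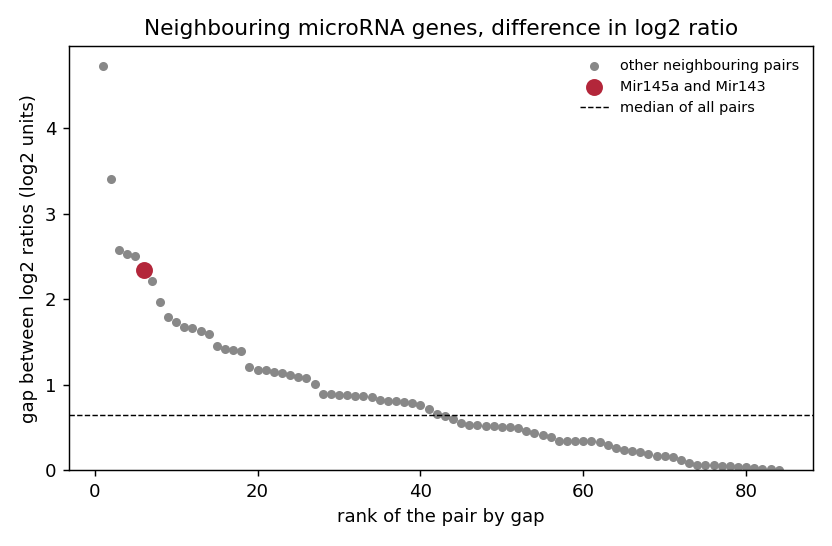
Gap between the log2 ratios of neighbouring microRNA genes (log2 units) against the rank of the pair, for 84 pairs, with the dashed line at the median of 0.65. The pair of Mir145a and Mir143 stands at 2.34, rank 6.

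With only 2 libraries the pattern of a gene is a single number, its log2 ratio, and likeness was measured by it over the 212 other genes whose mean reached 100 CPM. Nearest to Mir143 were Mir20a (0.34; 1821 and 2224 CPM), Mir224 (0.35; 180 and 222 CPM) and Mir322 (0.31; 19026 and 22827 CPM). Nearest to Mir145a were Mir487b (2.62; 1109 and 6585 CPM), Mir429 of epithelium (2.59; 46.5 and 275 CPM) and Mir34c (2.51; 250 and 1376 CPM).

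The measured microRNA of the endothelium, another part of the vessel wall, was lower in replicate 2. Mir126a, a microRNA of the endothelial cells that line vessels, had 177728 CPM in the first library against 47927 CPM in the other (log2 ratio -1.84). Its partner gene Mir126b had 3.95 and 1.56 CPM. Mir143 had 0.155 counts per count of Mir126a in replicate 1 and 0.704 in replicate 2. For Mir145a the same proportion was 0.00504 and 0.116. The smooth muscle genes were thus higher relative to the endothelial gene in replicate 2, by 4.54-fold for Mir143 and 23.1-fold for Mir145a.

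Of 17 further microRNAs described in the growth or contractile state of vascular smooth muscle, 12 were measured, with a median log2 ratio of 0.53 against -0.0052 over all genes. At least 1 log2 unit higher in replicate 2 were 2 genes, and 1 was lower by that much, close to the 22.2% of all genes past that size. Of the 11 at the floor in both libraries, 1 was higher and 1 lower, and their median was 0.47. Mir21a, which rises in proliferating and injured smooth muscle, had 4685 and 12350 CPM (log2 ratio 1.45). Mir26a-1 had 3.95 and 70.1 CPM (3.89), but it was under the floor in replicate 1, so the filter fixed its direction. Mir24-2, a numbered copy whose shared reads were left uncounted, had 194 and 84.1 CPM (-1.15). Within 1 log2 unit lay the other 9, among them Mir10a (17281 and 24962 CPM), Mir221 and Mir222 of proliferating smooth muscle (454 and 849 CPM, and 66.7 and 99.4 CPM), Mir132 (486 and 526 CPM), Mir31 (501 and 342 CPM) and Mir146 (1441 and 1060 CPM). Mir1a-1 and Mir133a-2 had 0 counts in both libraries and Mir1a-2 and Mir133a-1 at most 2.97 CPM. These are numbered copies too, as are Mir26a-1 and Mir26a-2, so their counts set no limit on miR-1, miR-133 and miR-26a.

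The mesenchymal genes split in direction. Mir140 was at a log2 ratio of 3.57 and Mir214 at -1.69 (3057 and 914 CPM), and Mir199b (53.9 and 86.6 CPM, 0.72) and Mir199a-2 (26.7 and 16.5 CPM, -0.61) lay between. Of 5 genes, 4 were measured, with a median of 0.05. Mir143 had 52.3 counts per count of Mir140 in replicate 1 and 5.56 in replicate 2, and 9.01 and 36.9 per count of Mir214, so the direction differed between these reference genes.

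Markers of other cell types differed between the libraries as well. The 7 epithelial microRNAs summed to 742 CPM in replicate 1 against 3274 CPM in replicate 2, with a median log2 ratio of 1.43. Mir200a (3.95 and 51.7 CPM) and Mir141 (9.39 and 19.9 CPM) were under the floor in replicate 1. Of the other 5 genes, 3 were higher by at least 1 log2 unit. That size was reached by 10.9% of all genes, which include some under the floor in replicate 1. The 5 leukocyte microRNAs summed to 2455 and 4308 CPM, with 2 of 5 higher by that much (median 0.99). The 5 striated muscle microRNAs summed to 11312 and 4506 CPM, nearly all of it from Mir206 (11177 and 4480 CPM). Mir208b (38.5 and 8.10 CPM) and Mir133b (17.8 and 5.92 CPM) were under the floor in replicate 2 and Mir208a in both. The 2 genes at the floor in both, Mir206 and Mir499, were lower in replicate 2 by at least 1 log2 unit. So were 11.2% of all genes, which include some under the floor in replicate 2. Red blood cell microRNAs summed to 653 and 320 CPM, with 1 of 3 lower by that much (median -0.89), and Mir122 of the liver had 26733 and 9284 CPM. Epithelial, leukocyte and Mir145a levels were high in the same library, and their part in the difference of Mir145a was not tested. With 1 to 5 genes a list, these shares say little about how far a list departs from the genes at large.

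Neuroendocrine microRNAs, which mark the chromaffin cells of the medulla, were close between the libraries, with 0 of 5 past 1 log2 unit in either direction and a median of -0.12. They summed to 28211 and 34978 CPM, most of it from Mir375 (24805 and 31924 CPM). Mir375 and Mir7-1 were higher in replicate 2 (log2 ratios 0.41 and 0.11), and Mir7b, Mir137 and Mir7-2 were lower (-0.12, -0.12 and -0.43). Mir143 kept a nearly constant proportion to Mir375, with 1.11 counts per count in replicate 1 and 1.06 in replicate 2. For Mir145a that proportion was 0.0361 and 0.175. Relative to Mir375, Mir143 was thus 0.952-fold and Mir145a 4.84-fold in replicate 2 of what it was in replicate 1. The constancy of Mir143 held for Mir375 only among the reference genes compared. Relative to Mir21a and Mir122, Mir143 was 0.465-fold and 3.53-fold in replicate 2 of what it was in replicate 1.

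**Figure D4:**
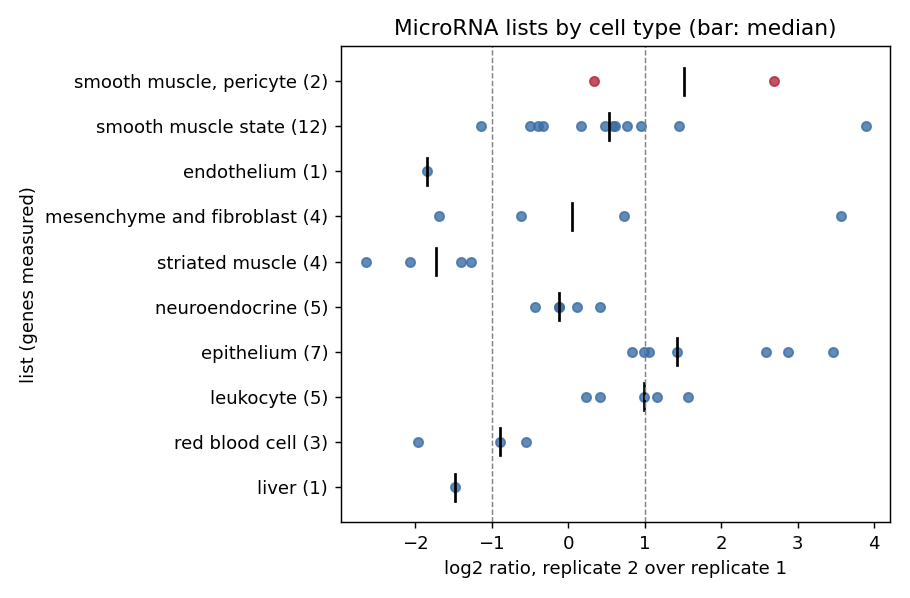
Log2 ratio of replicate 2 over replicate 1 for the measured genes of each list, with 1 point per gene and a bar at the median of the list, and dashed lines at 1 log2 unit. The smooth muscle and pericyte row holds Mir143 at 0.34 and Mir145a at 2.68, Mir126a of endothelium lies at -1.84, and the 5 neuroendocrine genes lie close to 0.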

How the data were processed

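Small RNA of adrenal gland was sequenced in 2 libraries. The authors deposited, for each library, unnormalized counts of reads by microRNA gene on mm10 with GENCODE M21, per the text files that accompany them. For the aligner and the counting program, the name is not given in the sources used here. Per the file contents, 3 columns of counts hold reads on either strand, on the strand of the gene and on the opposite strand. Counts on the strand of the gene were used, and 4 summary lines stayed out of totals and calculations.

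All 2202 identifiers matched M21, which gave symbols, positions and hairpins. CPM used the total of assigned reads. Log2 ratios used TMM factors (edgeR 4.0.16) and a pseudocount of 1 CPM, which understates differences of low genes. Intervals are exact 95% intervals, and a count of 0 allows 3 counts. With 1 library per animal number there was no replicated test, and no p is given. The calculation was tested on simulated data. Calculations ran in R 4.3.3, Python 3.11.15 and SciPy 1.17.1.

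Genes named besides the members were neighbours in level (the 2 above and below), the 3 nearest log2 ratios, genes of the lists and the 5 widest neighbouring pairs. Members and lists were chosen with earlier results of these data known. Alternatives were DESeq2 1.42.0 size factors, other totals, pseudocounts, floors, distances and counts on either strand. Genome copies, mature sequences and serum response factor motifs were not analysed here.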

Additional observations from a re-analysis of the deposited data

How the results depend on the processing

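The log2 ratio of Mir145a stayed above 1 (2.43 to 2.72) and that of Mir143 stayed above 0 and below 1 (0.08 to 0.37) under DESeq2 size factors, library totals with and without Mir126a, pseudocounts of 0.5 and 5 CPM and counts irrespective of strand. The lowest values came from totals without Mir126a, which moved the median of all genes from -0.0052 to -0.26 and split the genes past 1 log2 unit into 27 higher and 56 lower in place of 36 and 37. The difference in proportion between Mir145a and Mir143 was 2.34 under each alternative run for it. The pair ranked 4 of 51 neighbouring pairs with both genes at 100 CPM or more, 6 of 69 less than 2 kb apart and 7 of 91 less than 50 kb apart. Irrespective of strand, 621695 and 667292 reads were ambiguous, against 0 in the counts on the strand of the gene. Totals were then 1401836 and 2541746 in place of 2023410 and 3208821, the counts of Mir143 were the same, and its mean level was 41164 CPM. Per 1000000 reads of any kind it was 11603, and the share of the pair was 1.28%. Genes past 1 log2 unit numbered 48 at a floor of 100 CPM, where fewer genes are measured (217), and 131 with no floor (790 genes). Leaving out a replicate left the level of the other, 27532 to 33734 CPM for Mir143, 897 to 5579 CPM for Mir145a, 0 to 1.56 CPM for Mir145b and 2.84 to 3.93% for the pair, and log2 ratios then had no value. Mir145b is limited by depth.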
